A study of Mus musculus with 7 samples.

Results

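Hypoxia and glycolysis genes of cartilage are described here through the histone marks found around them. The members are 10 genes chosen by name, Hif1a, Epas1, Egln3, Vegfa, Slc2a1, Pfkfb3, Pgk1, Ldha, Bnip3 and Ankrd37, out of 18086 protein-coding genes that have a position under the same symbol on the same chromosome in both mouse genome builds used. For each gene, peaks within 1 kb of its transcription start, in the gene body and within 50 kb of either gene end were taken from 6 deposited ChIP-Seq peak lists. ChIP-Seq recovers DNA bound by a marked histone, and a peak is a stretch where that DNA exceeds the background.

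The chondrocytes were primary cells dissociated from the rib cartilage of newborn mice. Per the methods, they were resuspended in medium with serum, and cells within 2 passages counted as primary chondrocytes. Chondrocyte H3K27ac, an acetylation of active promoters and enhancers, had 2 replicates, and chondrocyte H3K4me2, a methylation of active and poised promoters and enhancers, had 1 list. Primary dermal fibroblasts from the skin of newborn mice, the control cells of the study, had 1 H3K27ac list. The fibroblasts too were resuspended in medium with serum. A second pair of H3K27ac lists came from WT rib chondrocytes and from rib chondrocytes with the genotype E160(delta/delta);E308(delta/delta), which lack both copies of 2 regions upstream of Sox9, a transcription factor required for cartilage formation. A chondrocyte input library is also labelled and was not analysed here. The labels give no oxygen level for the cells.

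Cartilage has no blood vessels, and its cells are known for growing at low oxygen. HIF-1α and HIF-2α, encoded by Hif1a and Epas1, are transcription factor subunits that are hydroxylated and then degraded when oxygen is present. When oxygen is scarce they persist, pair with ARNT and bind a short DNA motif near genes for glucose uptake, glycolysis, blood vessel growth and mitochondrial removal. HIF-1α is known as a survival factor of growth plate chondrocytes.

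Only chondrocyte H3K27ac had replicates, and no comparison with the single fibroblast list could be tested, so the values are given as a description beside the same values over all genes. The lists held 19458 to 66369 peaks, the fibroblast list being the shortest and the H3K4me2 list the longest, and the sequencing depth behind them is unknown. The widest peak was 8239 to 8512 bp in replicate 1, H3K4me2 and fibroblasts and 20786 to 46443 bp in the other 3 lists. Of the 67 WT peaks wider than 8512 bp, 59.7% met a peak of replicate 1, 49.3% of H3K4me2 and 56.7% of fibroblasts, against 95.7% to 98.1% of the top 10% of WT peaks by score, so that a missing peak in these 3 lists is weak evidence where the mark is broad. All WT peaks at the 10 genes were narrower than this, but narrower WT promoters also lacked a peak in these lists: Sox9 and Col2a1, with 8247 and 7110 bp in WT, had none in replicate 1, Twist1, with 6365 bp, none in fibroblasts and Eno1, with 5659 bp, none for H3K4me2. As a check of the labels, 9 of 10 chondrocyte markers had a promoter peak in replicate 2, WT and the deletion list, 7 in replicate 1, where Col2a1, Sox9 and Matn1 had none, and 1, Sox9, in fibroblasts. Of 8 fibroblast markers, 5 had one in fibroblasts, where Col1a1, Col1a2 and Twist1 had none, 5 in replicate 1, 7 in replicate 2 and 8 in WT and the deletion list. None of the 4 endothelial, 2 blood, 3 keratinocyte and 3 muscle markers found had an H3K27ac promoter peak in any list, except Tek, an endothelial receptor, in fibroblasts. The part that fibroblast markers in the chondrocyte lists have in the results was not tested.

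The promoters of 4 members are printed first because they span the results. Pgk1 had the highest ratio of chondrocyte to fibroblast breadth among the members in each chondrocyte H3K27ac list, Ldha the highest-scoring promoter peak of the WT list among the members, Bnip3 a promoter peak in chondrocytes without one in fibroblasts, and Egln3 no H3K27ac promoter peak in any list. The sequences are the 250 bases before the RefSeq start (GRCm38.p6), placed in mm9 by an exact match, 5′ to 3′ on the strand of the gene. Capitals mark the core of the hypoxia response element, ACGTG or GCGTG on either strand, and matches that overlap are joined into 1 stretch.
Pgk1 promoter (chrX:103382189-103382438, + strand): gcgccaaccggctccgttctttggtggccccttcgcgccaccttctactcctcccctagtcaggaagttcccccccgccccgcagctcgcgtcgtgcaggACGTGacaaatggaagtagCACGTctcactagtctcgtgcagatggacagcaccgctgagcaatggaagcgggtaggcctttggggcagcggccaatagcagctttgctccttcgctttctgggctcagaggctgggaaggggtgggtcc
Ldha promoter (chr7:54100924-54101173, + strand): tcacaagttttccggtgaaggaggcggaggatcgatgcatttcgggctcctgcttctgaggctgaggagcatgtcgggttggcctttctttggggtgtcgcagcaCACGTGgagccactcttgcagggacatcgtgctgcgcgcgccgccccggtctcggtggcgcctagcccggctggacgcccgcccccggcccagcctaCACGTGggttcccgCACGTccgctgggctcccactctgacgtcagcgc
Bnip3 promoter (chr7:146101190-146101439, - strand): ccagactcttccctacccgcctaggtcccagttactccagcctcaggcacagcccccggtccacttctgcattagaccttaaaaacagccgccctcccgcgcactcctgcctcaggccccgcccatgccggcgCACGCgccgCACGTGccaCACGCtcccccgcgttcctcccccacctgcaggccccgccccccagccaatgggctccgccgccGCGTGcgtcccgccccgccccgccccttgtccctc
Egln3 promoter (chr12:55304862-55305111, - strand): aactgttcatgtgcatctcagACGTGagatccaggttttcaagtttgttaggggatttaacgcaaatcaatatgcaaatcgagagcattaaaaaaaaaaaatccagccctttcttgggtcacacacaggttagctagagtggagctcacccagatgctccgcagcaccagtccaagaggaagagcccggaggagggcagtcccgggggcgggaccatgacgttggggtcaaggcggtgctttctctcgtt

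The motif was present in 11 of the 12 RefSeq promoter windows of the members, each 250 bases before to 50 bases after a start. Over all genes, 50.8% of 17537 such windows held it. The members' windows had a median GC content of 66.0% against 57.3% over all genes, and 64.7% of the 8471 windows within the members' GC range held the motif. Ldha had 5 stretches at its first start and Bnip3 had 4, whereas Egln3 had 1 and the main Vegfa start had 0. The other windows held 1 to 3 stretches, with 2 for Pgk1, Slc2a1 and Hif1a and 3 for Ankrd37. A palindromic CACGTG stretch reads the same on both strands and is also the core of the E-box. RefSeq has 12 starts for 9 of the members in this table, with 2 each for Vegfa, Ldha and Pfkfb3. Epas1 is not in the table. A match is a string of letters and no evidence of binding.

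The first question was whether the promoters carried the marks. Taking the 5′ end of the gene record as the start, H3K27ac peaks lay within 1 kb of 8 of 10 members in replicate 1, 5 in replicate 2, 6 in fibroblasts, 7 in WT and 6 in the deletion list. Among all 18086 genes, the shares were 44.2%, 43.1%, 47.5%, 50% and 47.1% in the same order. H3K4me2 marked 8 of 10 members and 66.3% of all genes. Replicate 2 is on GRCm38 and the other lists are on mm9, and the gene records start at different places in the builds for some members. The Pfkfb3 record begins 52.0 kb further upstream on GRCm38 than the RefSeq start beside the mm9 record. For Hif1a and Ldha the gene record begins 6.49 and 4.33 kb upstream of the first RefSeq start on mm9.

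With the RefSeq starts used in both builds, a choice made after the data were seen, every list marked 8 of 10 members. Over the 14313 genes with such a start, the shares were 47.4% and 47.2% in the replicates, 53.2% in WT, 50.5% among deletion peaks, 50.8% in fibroblasts and 68.7% for H3K4me2. Hif1a, Vegfa, Slc2a1, Pfkfb3, Pgk1, Ldha and Ankrd37 were marked by H3K27ac in every list, 7 genes in all. The gene that made up the eighth was Bnip3 in the 4 chondrocyte lists and Epas1 in fibroblasts. The breadths below are the summed lengths of the peaks that reach within 1 kb of a RefSeq start, or of the gene record start for Epas1.

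**Figure D1:**
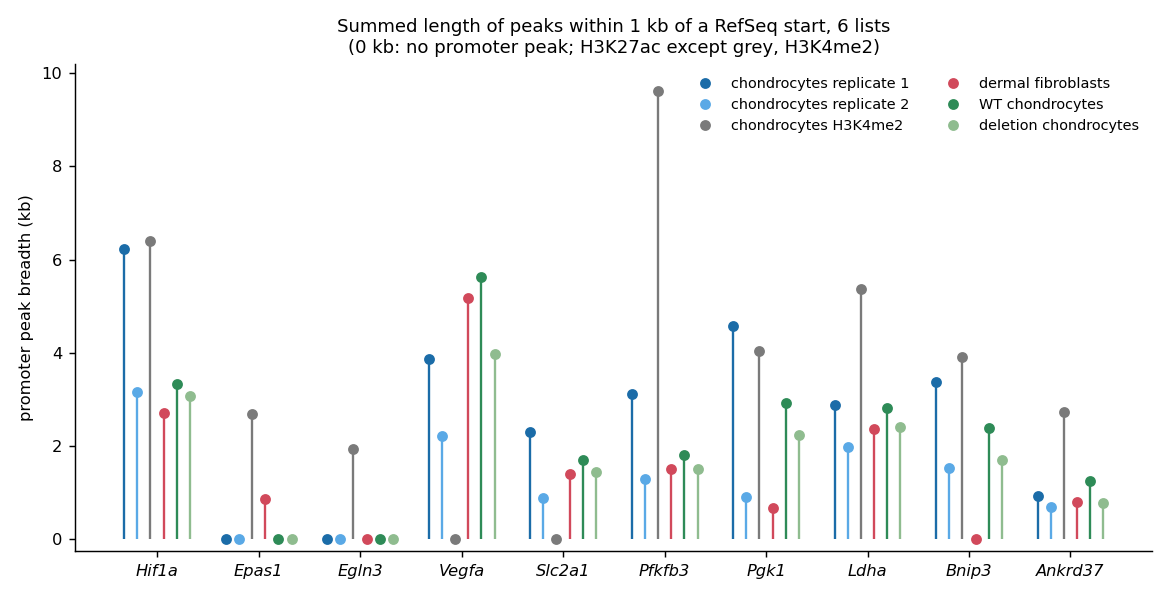
Each point is the promoter peak breadth in kb (vertical axis) of 1 gene (horizontal axis) in 1 list, measured at RefSeq starts, with 0 kb for no promoter peak. Epas1 and Egln3 have H3K4me2 peaks of 2.68 and 1.94 kb and no chondrocyte H3K27ac peak, and Pgk1 is 0.666 kb in fibroblasts and 0.911 to 4.57 kb in the chondrocyte H3K27ac lists.

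The HIF subunits differed from each other. Hif1a (mm9 chr12:75002362-75048517, + strand), the widely expressed α subunit, had a promoter breadth of 6228 bp in replicate 1, 3163 bp in replicate 2, 3340 bp in WT, 3075 bp in the deletion list and 2707 bp in fibroblasts. The fibroblast value was the lowest, and the 2 replicates were 2.30 and 1.17 times as broad as it, so the replicates differed more from each other than replicate 2 did from fibroblasts. By score the peak stood in the top 1.83% of the WT list, 2.04% of replicate 2, 3.37% of deletion peaks and 4.35% of fibroblast peaks. In replicate 1 the peak ran from 63 to 6290 bp after the start and was in the top 54.7% only, although it was the broadest of the H3K27ac peaks at any member. A separate replicate 1 peak of 1080 bp, in the top 7.69%, lay at the 5′ end of the mm9 gene record, where WT had 325 bp in the top 95.4% and fibroblasts and replicate 2 had none.

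Epas1 (mm9 chr17:87153247-87232750, + strand), the α subunit known from endothelial cells and from hypertrophic cartilage, had no H3K27ac promoter peak in replicate 1, replicate 2, WT or the deletion list. Fibroblasts had 1 of 854 bp, from -1183 to -330 bp of the start, in the top 38.9%. The H3K4me2 peak at the same start was 2683 bp wide and among the top 0.762% of its list, the highest rank of any member promoter in any list. A promoter marked by H3K4me2 and by no chondrocyte H3K27ac list occurred in 16.0% of all genes, and 1.53% also had the fibroblast peak. Epas1 was in both classes, and Egln3 was the only other member in the first. Of the 11 loci of Epas1 away from starts, all had H3K4me2 and only 1, an intronic peak of 447 bp in replicate 1, had H3K27ac. Replicate 2, WT and the deletion list had no H3K27ac peak within 50 kb of Epas1 at all.

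Egln3 (mm9 chr12:55279968-55304847, - strand) encodes PHD3, a hydroxylase that marks HIF-α for degradation and is itself induced by HIF. None of the 5 H3K27ac lists had a peak within 1 kb of its start, which H3K4me2 covered with a peak of 1942 bp in the top 7.42%. In replicate 1, H3K27ac appeared inside the gene as peaks of 468 bp and 522 bp, in the top 96.9% and 77.7%, and in WT as 1 peak of 204 bp in the top 82.2%. A locus 40.9 kb downstream of the start, past the end of the gene, was marked in replicate 1, WT, the deletion list and fibroblasts with 487, 452, 382 and 792 bp, and by H3K4me2 with 1497 bp in the top 8.97%. Replicate 2 had no peak in the whole neighbourhood of Egln3.

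Vegfa (mm9 chr17:46153942-46169326, - strand), the angiogenic ligand induced by HIF, was the member with the broadest fibroblast promoter. Its breadth was 5181 bp in fibroblasts, 3873 bp in replicate 1, 2210 bp in replicate 2, 5628 bp in WT and 3973 bp in the deletion list. Both replicates were narrower than fibroblasts, at 0.748 and 0.427 times their breadth, but WT was 1.09 times as broad, so the order depended on the chondrocyte library. The replicate 2 and deletion lists split the region into further peaks of 313 to 1252 bp that began over 1 kb from the start and are left out of these breadths. H3K4me2 did not reach within 1 kb of the Vegfa start, and its nearest peak ran from 1641 to 5305 bp inside the gene. Vegfa was 1 of 2 members without an H3K4me2 promoter peak, the other being Slc2a1.

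Among the genes for glucose uptake and glycolysis, Slc2a1 (mm9 chr4:118781316-118809935, + strand), the glucose transporter GLUT1, had a promoter breadth of 2308 bp in replicate 1, 890 bp in replicate 2, 1693 bp in WT, 1441 bp in the deletion list and 1407 bp in fibroblasts. The replicates lay on either side of fibroblasts, at 1.64 and 0.633 times the breadth. By score, the peak ranked in the top 7.17% to 7.86% of replicate 2, WT and deletion peaks, against 45.0% in fibroblasts and 58.5% in replicate 1. The first H3K4me2 peak inside the gene began 15366 bp after the start.

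Pfkfb3 (mm9 chr2:11393057-11423728, - strand) makes the enzyme that raises fructose 2,6-bisphosphate and so speeds glycolysis. Its breadth was 3124 bp in replicate 1, 1300 bp in replicate 2, 1816 bp in WT, 1513 bp in the deletion list and 1511 bp in fibroblasts. The fibroblast value includes a peak at the second RefSeq start, 51.8 kb upstream, without which the promoter was 1105 bp broad. Replicate 2 was narrower than fibroblasts with that peak and broader without it. H3K4me2 was broadest here among the members, with 9608 bp in 2 peaks, the larger of 7371 bp.

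Pgk1 (mm9 chrX:103382439-103399038, + strand), the X-linked phosphoglycerate kinase, had a promoter breadth of 4571 bp in replicate 1, 911 bp in replicate 2, 2933 bp in WT, 2245 bp in the deletion list and 666 bp in fibroblasts. Every chondrocyte list exceeded fibroblasts, by 6.86, 1.37, 4.40 and 3.37 times in the order of those lists. Over all genes marked in both, a ratio at least this high was found for 0.126% and 6.75% in the replicates, 0.732% in WT and 0.665% among deletion peaks. The fibroblast peak, from 209 to 874 bp after the start, was in the top 91.7% of its list, while the best chondrocyte promoter peak ranked in the top 21.8% to 30.7%. Replicates 1 and 2 differed by more than replicate 2 and fibroblasts did. Upstream of the start, replicate 1, WT and the deletion list had a second peak of 1124, 786 and 459 bp, and replicate 2 and fibroblasts had none.

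Ldha (mm9 chr7:54096845-54110997, + strand), which makes the muscle-type subunit of lactate dehydrogenase and turns pyruvate into lactate, had a promoter breadth of 2872 bp in replicate 1, 1986 bp in replicate 2, 2817 bp in WT, 2403 bp in the deletion list and 2367 bp in fibroblasts. The fibroblast value lay between those of the replicates, with ratios to it of 1.21 and 0.839. The peak was in the top 2.33% of replicate 1, 1.23% of WT and 8.05% of fibroblasts. A second region 6.43 kb upstream was marked in every list, with 2921 bp in replicate 1, 1648 bp in replicate 2, 2171 bp in WT, 1855 bp in the deletion list, 1677 bp in fibroblasts and 4193 bp for H3K4me2. It lies just upstream of the 5′ end of the mm9 gene record.

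Bnip3 (mm9 chr7:146082519-146101202, - strand) encodes a mitochondrial protein that promotes mitophagy and is induced by HIF-1. It had promoter peaks of 3381 bp in replicate 1, 1535 bp in replicate 2, 2387 bp in WT and 1701 bp in the deletion list, and none in fibroblasts. A promoter peak in both replicates and none in fibroblasts was found for 1.65% of all genes, and Bnip3 was the 1 member among them. The opposite state, held by Epas1 alone, was found for 3.76%. The fibroblast list had a peak of 1245 bp that began 1804 bp inside Bnip3, in a region that all chondrocyte lists also covered at least in part. With a window of 2 kb this peak counted as a promoter peak, and Bnip3 was then marked in both cell types.

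Ankrd37 (mm9 chr8:47082256-47085221, - strand), an ankyrin repeat protein induced by HIF-1, had the lowest breadth of the marked members in replicates 1 and 2, WT and the deletion list. The values were 926 bp in replicate 1, 694 bp in replicate 2, 1245 bp in WT, 772 bp in the deletion list and 801 bp in fibroblasts. The chondrocyte values lay on both sides of the fibroblast value. The whole of the replicate 1 and fibroblast peaks lay upstream of the start, within Lrp2bp, a gene that begins beside Ankrd37 on the opposite strand, and the mark cannot be assigned to either gene.

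The comparison of promoter breadth between cell types rested on the 7 members marked in both. Their median ratio to fibroblasts was 1.64 and 0.860 in the replicates, 1.20 in WT and 1.02 among deletion peaks. Over all genes, the medians were 1.16, 0.789, 1.16 and 0.926, so both the members and all genes were above 1 in replicate 1 and below 1 in replicate 2. Replicate 1 had the higher ratio at 7 of 7 members. The median peak width of the whole list was 917 bp in replicate 1, 918 bp in fibroblasts and 633 bp in replicate 2. Replicate 1 and fibroblasts were deposited in another format than replicate 2, so replicate and list format cannot be told apart. No member was broader by 1.5 times or more in both replicates, where 4.41% of 6028 genes were, and none was narrower, where 8.24% were. In WT, Pgk1 and Ankrd37 were broader by 1.5 times or more, 2 of 7 members against 22.6% of all genes. Pfkfb3, whose fibroblast breadth includes the peak at its second start, was 1.64 times as broad at the mm9 gene record start. At gene record starts the shares of all genes were 4.08%, 8% and 21.9%, with 0 of 4 members broader and 0 narrower in both replicates and 3 of 5 broader in WT. After the median of all genes was taken off, Pgk1 was 5.93 times as broad as in fibroblasts in replicate 1, 1.73 times in replicate 2 and 3.80 times in WT, and Hif1a 1.99, 1.48 and 1.07 times.

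**Figure D2:**
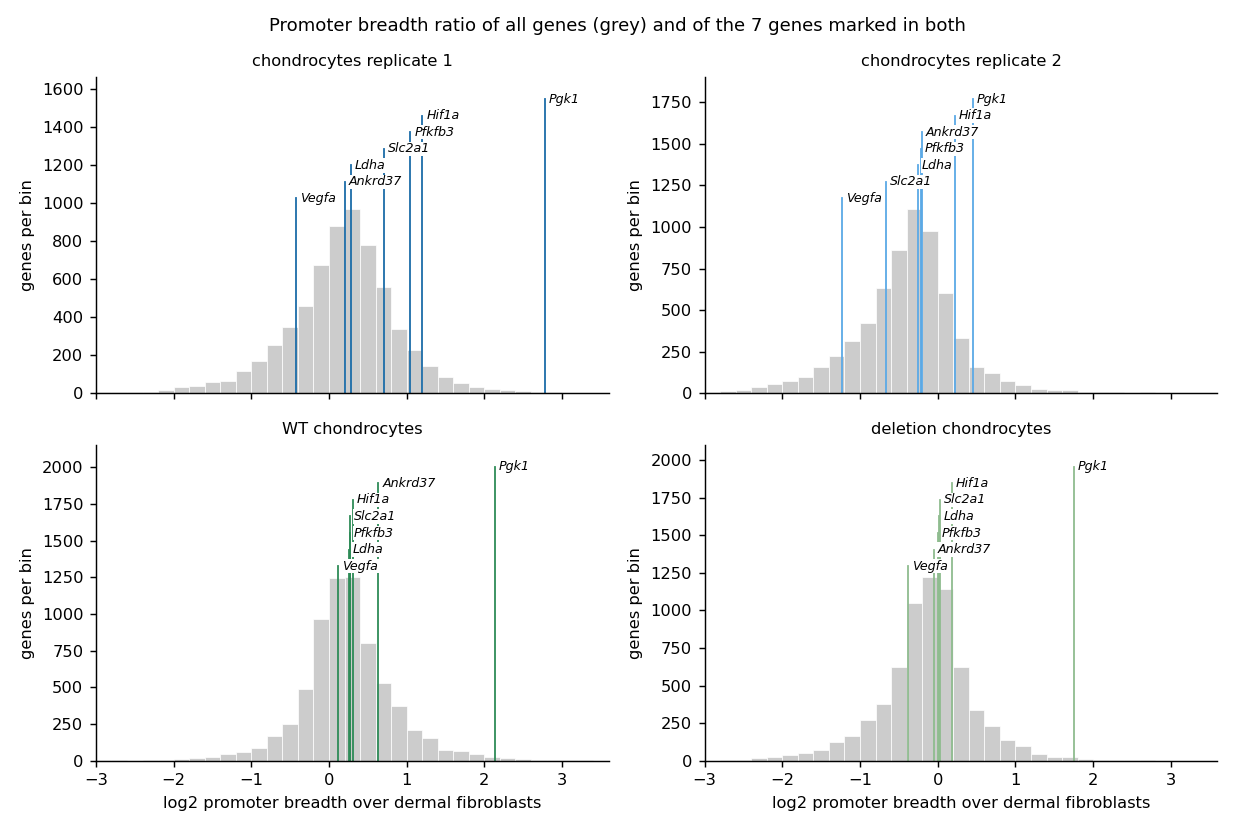
Grey bars count genes by the log2 ratio of promoter breadth in a chondrocyte list over dermal fibroblasts (horizontal axis), and coloured lines are the 7 members marked in both. Pgk1 is the highest member in all 4 panels, and the median of all genes is 0.21 in replicate 1 and -0.34 in replicate 2.

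Within the members, the marked promoters were broader than those of all marked genes in each list, measured at RefSeq starts. The medians were 3252.5 bp against 1582 bp in replicate 1, 1417.5 bp against 1077 bp in replicate 2, 2602 bp against 1559 bp in WT, 1973 bp against 1252 bp in the deletion list, 1459 bp against 1328 bp in fibroblasts and 3973 bp against 2647 bp for H3K4me2. The difference was smallest in fibroblasts. At gene record starts, the members' median was below that of all genes in replicate 2, at 911 bp against 1056 bp, and in fibroblasts, at 979.5 bp against 1313 bp. Hif1a and Ldha had no peak at these starts in either list, and Pfkfb3 had none in replicate 2. The members span a wide range in each list, and Ankrd37 ranked by breadth only in the top 65.1% to 79.3% of marked genes in the H3K27ac lists.

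By the gene records of each build, the members had 12 and 5 distal peaks in replicates 1 and 2, then 6 in WT and 7 in deletion chondrocytes, and 13 in fibroblasts and 34 for H3K4me2. Per gene, the mean over the members was 1.2 against 0.692 over all genes in replicate 1, 1.3 against 0.482 in fibroblasts and 3.4 against 2.11 for H3K4me2. It was below that of all genes in replicate 2, at 0.5 against 0.680, in WT, at 0.6 against 1.11, and among deletion peaks, at 0.7 against 0.781. The order of the lists depended on the flank and on the score: within 100 kb replicate 1 had 23, WT 21 and fibroblasts 17 distal peaks, and in the higher-scoring 50% of each list WT had 5 and fibroblasts 2. A distal peak lies within 50 kb of the gene and not within 1 kb of any protein-coding start. Gene body peaks numbered 6, 11, 7, 10, 6 and 14 in the same order. Per gene, the means were 0.6, 1.1, 0.7, 1.0, 0.6 and 1.4, against 0.460, 0.395, 0.704, 0.470, 0.274 and 1.29 over all genes. The body peaks of Hif1a and Ldha include their RefSeq promoters, as do those of Pfkfb3 in replicate 2. No member had more distal peaks in both replicates than in fibroblasts, where 11.9% of all genes did. Bnip3 and Slc2a1, 2 of 10 members, had fewer in both, where 10.4% of all genes did. At Bnip3, fibroblast peaks of 463 and 476 bp lay in 1 locus that each chondrocyte list covered with 1 peak. The replicates disagreed on the total by more than replicate 1 and fibroblasts did. Pfkfb3 held the most distal H3K27ac peaks of any member, 5 in replicate 1 and 4 in fibroblasts, and Epas1, Pgk1 and Ankrd37 held none in any H3K27ac list. The GRCm38 record of Pfkfb3 reaches further upstream, so its replicate 2 peak there counts as a gene body peak.

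**Figure D3:**
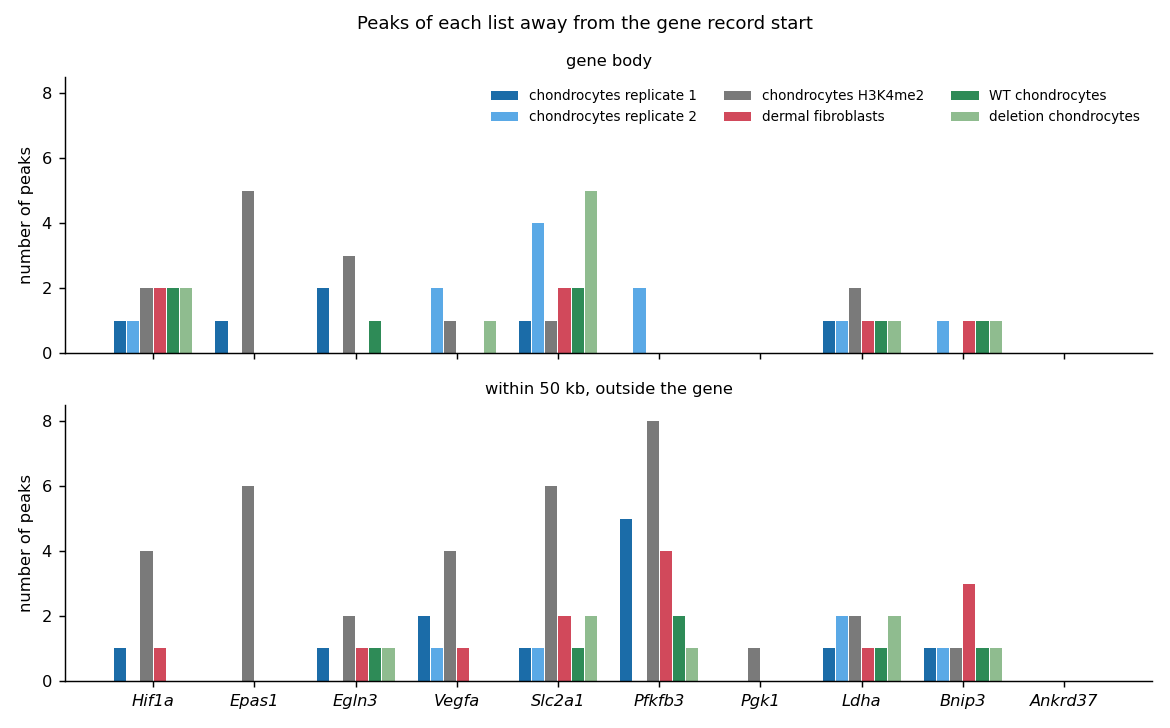
Bars count the peaks of each list (colours) for each member (horizontal axis) in the gene body (upper panel) and within 50 kb outside the gene (lower panel). H3K4me2 has the most distal peaks, up to 8 at Pfkfb3, and the H3K27ac totals within 50 kb run from 5 in replicate 2 to 13 in fibroblasts.

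To set the lists beside each other, peaks were joined into loci by their distance from the same start, each list in its own build. Away from coding starts the members had 53 loci, of which 31 held H3K4me2 alone and 22 held H3K27ac. Of these 22, 8 were shared by a chondrocyte list and fibroblasts, 9 were in chondrocyte lists only and 5 in fibroblasts only. Of the 9, 6 were in just 1 chondrocyte list. H3K4me2 was present at 12 of the 17 loci with chondrocyte H3K27ac and at 8 of the 13 with fibroblast H3K27ac. Of the 6 loci that replicate 2 held, 3 were also in replicate 1, and these 3 were marked by H3K27ac in all 5 lists.

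**Figure D4:**
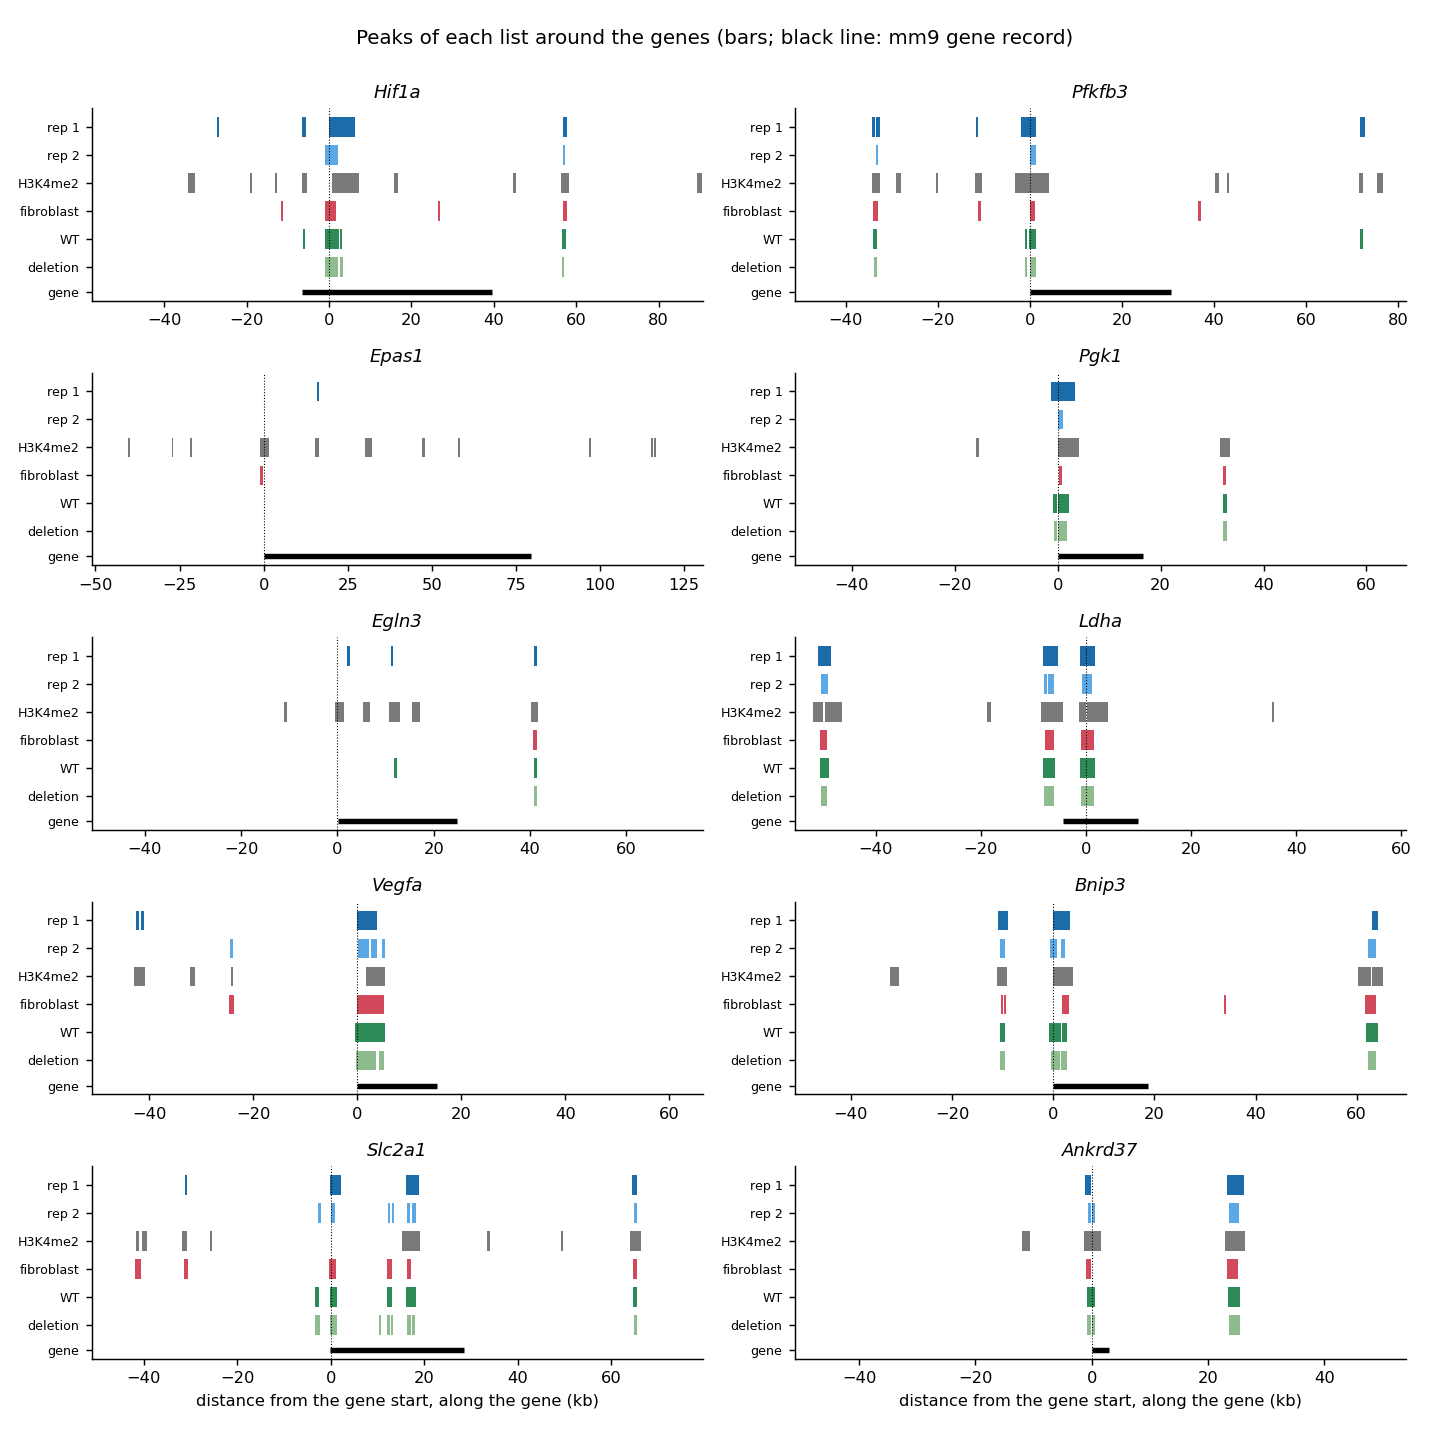
Bars are peaks of each list (rows) by distance from the gene start in kb along the direction of the gene, with the mm9 gene record in black and the start at the dotted line. Epas1 has almost no H3K27ac, and Bnip3, Pfkfb3 and Slc2a1 each have 1 locus away from coding starts that all lists mark. The region 6.43 kb upstream of Ldha is also marked in all lists but reaches within 1 kb of the mm9 gene record start.

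The 3 loci away from coding starts in all 5 H3K27ac lists were an intergenic one 10.1 kb upstream of Bnip3, an intergenic one 33.5 kb upstream of Pfkfb3 and one 17.3 kb inside Slc2a1, in an intron. The Ldha region 6.43 kb upstream, also in all 5, is not among them because its replicate 1 and H3K4me2 peaks reached within 1 kb of the mm9 gene record start. The Bnip3 locus had 1916 bp in replicate 1, 1022 bp in replicate 2, 977 bp in WT, 952 bp in the deletion list and 939 bp in fibroblasts. By score it stood in the top 3.20% of replicate 1 and 29.2% of WT but in the top 75.9% of fibroblasts. The Pfkfb3 locus had 1656 bp in replicate 1, 240 bp in replicate 2, 831 bp in WT, 706 bp in the deletion list and 1028 bp in fibroblasts, and ranked in the top 40.5% and 63.2% in replicate 1 and fibroblasts. The Slc2a1 locus had 2697 bp in replicate 1, 1503 bp in replicate 2, 2121 bp in WT, 1582 bp in the deletion list and 916 bp in fibroblasts, and the chondrocyte peaks, in the top 41.9% to 44.3%, ranked above the fibroblast peak in the top 85.5%.

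The 200 bases around the WT summit of these 3 peaks and of the Egln3 downstream peak, which fibroblasts and all chondrocyte lists but replicate 2 held, are shown as examples of regions shared by the cell types away from starts. An Slc2a1 locus 12.6 kb inside the gene, not printed, was also in 4 H3K27ac lists, with 803 bp in replicate 2, 1068 bp in WT, 997 bp in deletion chondrocytes and 1190 bp in fibroblasts. They were read from the mm9 genome on the plus strand, no annotated coding-transcript exon overlaps them, and capitals mark the same motif.
Bnip3 upstream peak (chr7:146111236-146111435, + strand): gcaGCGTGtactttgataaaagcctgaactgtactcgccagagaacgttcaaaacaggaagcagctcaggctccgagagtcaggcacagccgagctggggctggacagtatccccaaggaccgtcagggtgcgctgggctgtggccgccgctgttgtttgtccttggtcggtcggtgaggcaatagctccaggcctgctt
Pfkfb3 upstream peak (chr2:11457356-11457555, + strand): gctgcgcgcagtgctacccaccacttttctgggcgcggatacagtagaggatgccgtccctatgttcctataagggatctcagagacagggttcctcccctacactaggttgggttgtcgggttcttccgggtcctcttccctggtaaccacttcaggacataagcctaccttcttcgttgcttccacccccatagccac
Slc2a1 intron peak (chr4:118798782-118798981, + strand): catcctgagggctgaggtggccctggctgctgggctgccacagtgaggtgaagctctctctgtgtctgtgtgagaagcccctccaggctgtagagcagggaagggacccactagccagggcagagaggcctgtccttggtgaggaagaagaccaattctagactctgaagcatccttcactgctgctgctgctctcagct
Egln3 downstream peak (chr12:55263622-55263821, + strand): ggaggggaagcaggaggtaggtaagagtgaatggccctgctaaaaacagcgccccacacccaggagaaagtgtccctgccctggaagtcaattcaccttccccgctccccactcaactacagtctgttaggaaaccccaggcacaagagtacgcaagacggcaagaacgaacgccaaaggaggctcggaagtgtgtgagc

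The motif was found in the Bnip3 window and in none of the other 3. Over the 21611 WT peaks away from coding starts, 21.0% of such 200-base windows held it.

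In chondrocytes only, Slc2a1 had a locus 2.70 kb upstream in replicate 2, WT and the deletion list with 690, 915 and 675 bp, in the top 36.3% to 49.6%, and Pfkfb3 had one 72.1 kb downstream of its start in replicate 1 and WT with 1102 and 357 bp. Vegfa had 2 loci 42.5 and 41.4 kb upstream, marked in replicate 1 alone among the H3K27ac lists, with 560 and 700 bp, both also marked by H3K4me2. In fibroblasts only, the loci were 2 at Hif1a with 568 and 457 bp, 1 at Slc2a1 with 1157 bp, 1 at Pfkfb3 with 689 bp and 1 at Bnip3 with 375 bp. These fibroblast peaks ranked in the top 51.2% to 92.1% of their list, and H3K4me2 lay at the Slc2a1 one alone.

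Overlap was then counted peak by peak between lists of the same build. Of the 18 body and distal peaks of replicate 1, 8 (44.4%, exact 95% interval 21.5% to 69.2%) had no fibroblast peak. This share was 72.2% at 50% reciprocal overlap, 75.0% in the higher-scoring 50% of each list and 27.3% with lists of equal length. The higher-scoring 50% held only 2 body and 2 distal peaks of replicate 1. The genome share was not computed under these settings. Of the replicate 1 peaks away from coding starts, 8 of 16 (interval 24.7% to 75.3%) had none, against 73.9% of 14763 such peaks in the genome. Of the WT peaks away from starts, 4 of 11 (36.4%, 10.9% to 69.2%) had none, against 76.8% of 21611. In the other direction, 7 of 17 fibroblast peaks (41.2%, 18.4% to 67.1%) had no replicate 1 peak, against 59.8%, and 8 of 17 (47.1%) had no WT peak, against 48.6%. The genome share lay inside the members' interval for replicate 1 and both fibroblast counts and outside it for WT. The genome shares take in peaks at any distance from a gene, whereas the members' peaks lie in or within 50 kb of one. The 11 WT peaks also include those of Hif1a from 2734 to 2999 bp and of Bnip3 from 1699 to 2690 bp. Both lie in the locus of the start, so the WT difference cannot be read as a trait of the members. The intervals are Clopper-Pearson and cover counting error only, and peaks of the same gene are not independent. H3K4me2 overlapped 14 of the 16 replicate 1 peaks away from starts (87.5%, 61.7% to 98.4%), against 86.2% in the genome. With body peaks at starts included, the share was 88.9%, and it was 38.9% at 50% reciprocal overlap and 45.5% with lists of equal length. In the other direction, 33 of 44 H3K4me2 peaks (75.0%) had no replicate 1 peak, against 75.3%.

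WT and E160/E308 deletion chondrocytes were compared at the same genes. Both lists marked the same 8 members, and the deletion breadth was lower at 8 of 8, with ratios to WT from 0.620 at Ankrd37 to 0.921 at Hif1a. The median ratio was 0.799, and over 7221 genes it was 0.796, with 7002 of them narrower in the deletion list, so the members lay close to all genes. Epas1 and Egln3 had no H3K27ac promoter peak in either. Of the 22 WT promoter, body and distal peaks of the members, 3 (13.6%, 2.91% to 34.9%) had no deletion peak, against 37.2% of all WT peaks. These were the WT peak at the 5′ end of the mm9 record of Hif1a, the intronic peak of Egln3 and the Pfkfb3 peak 72.0 kb downstream of the start, with ranks of 95.4%, 82.2% and 78.1% from the top. The 22 peaks and all WT peaks differ in how many lie at coding starts. Away from coding starts, 2 of 11 WT peaks of the members (18.2%, 2.28% to 51.8%) had no deletion peak. The genome share was 50.7% of 21611, inside that interval. With 1 library each, the genotype and the library cannot be told apart.

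Other genes of the pathway were taken from lists of 49 genes, of which 47 were found under the same symbol in both builds. At gene record starts, H3K27ac marked 35 and 32 of them in replicates 1 and 2, 39 in WT, 36 in deletion chondrocytes and 36 in fibroblasts, and H3K4me2 marked 43. These are 74.5%, 68.1%, 83.0%, 76.6% and 76.6% for H3K27ac, against 44.2%, 43.1%, 50%, 47.1% and 47.5% of all genes, and 91.5% for H3K4me2, against 66.3%. The HIF and oxygen sensing genes were marked at 5 of 7 in both replicates and 6 of 7 in fibroblasts, with Hif1an, an asparagine hydroxylase acting on HIF-α, Arnt, the partner of HIF-α, Vhl, which targets HIF-α for degradation, and the hydroxylases Egln1 and Egln2 marked in every list. Egln1 was 2116 bp broad in replicate 1, 1795 bp in replicate 2 and 2661 bp in fibroblasts, where its relative Egln3 had no promoter peak. Arnt2, a relative of Arnt, was marked in fibroblasts with 636 bp and in neither replicate. Glycolysis and lactate genes were marked at 14 of 18 in replicate 1, 11 in replicate 2 and 12 in fibroblasts, and other hypoxia-induced genes at 16 of 22 in each replicate and 18 in fibroblasts.

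Among the pathway genes marked in both replicates and not in fibroblasts, a state of 1.65% of all genes, was Tpi1, the triose phosphate isomerase, with 3114 bp in replicate 1, 2329 bp in replicate 2, 2426 bp in WT and 1691 bp in the deletion list. In the opposite state, found for 3.76% of all genes and for 4 of the 47 here, besides Arnt2, were Adm, which makes the vasodilator adrenomedullin, with 3609 bp in fibroblasts, Mxi1, a MYC antagonist, with 3693 bp, and Plod2, a collagen lysyl hydroxylase, with 1251 bp. All 4 had peaks in WT, of 306 bp for Arnt2, 1110 bp for Adm, 1241 bp for Mxi1 and 5777 bp for Plod2, so the WT list did not share the state of the replicates. Plod2, Eno1, the enolase, with 5659 bp and Lox, the collagen cross-linking oxidase, with 5439 bp were the broadest of the lists in WT.

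Of the pathway genes, 6 had no H3K27ac promoter peak in any list, namely Hif3a, Hk1, Slc2a3, Ldhb, Car9 and Car12. The share of all genes without a peak in any of the 5 lists was not computed. Each H3K27ac list alone marked 43.1% to 50% of all genes, so an unmarked promoter was common. Hk1, a hexokinase, had no peak at its gene record start, but its RefSeq starts carried 2435 bp in replicate 1, 1149 bp in replicate 2 and 1339 bp in fibroblasts. The other 5 had H3K4me2 peaks of 1202 to 2298 bp, the state that Epas1 in chondrocytes and Egln3 shared. Ldhb, the heart-type lactate dehydrogenase subunit, and Slc2a3, the transporter GLUT3, were thus without H3K27ac where the RefSeq starts of Ldha and Slc2a1 had it in all 5 lists. The next 3 genes were named after their values were seen. Of the 28 pathway genes marked in both replicates and fibroblasts, 2 were broader by 1.5 times or more in both replicates, where 4.08% of all genes were, the phosphofructokinase Pfkl with 3256, 1863 and 1061 bp in replicate 1, replicate 2 and fibroblasts and Pdk1, a kinase that shuts off pyruvate dehydrogenase, with 664, 644 and 395 bp. The glycolytic aldolase Aldoa was narrower in both, where 8% of all genes were, with 1855, 1286 and 3404 bp, but at RefSeq starts it had 3885, 2761 and 3404 bp and was not.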

How the data were processed

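H3K27ac and H3K4me2 ChIP-Seq peak lists of 6 libraries were analysed, and the chondrocyte input was not analysed here. The authors called peaks with MACS2 2.2.4 after fastp preprocessing and Bowtie2 2.4.4 alignment, per the submitters' processing notes, and all lists were called per library. Replicate 1, H3K4me2 and fibroblast lists were deposited with a score only, while replicate 2, WT and deletion lists were deposited with a score, a fold enrichment and −log10 p and q values, against input reads. The positions of replicate 2 are those of GRCm38 and of the others mm9, which the methods name for all. Depth is unknown, and scores were used only as ranks within a list. The lowest score was 50 in the lists with a score only and 13 to 20 in the others. The median peak width was 917 bp in replicate 1, 918 bp in fibroblasts and 633 to 714.5 bp in replicate 2, WT and deletion lists. Ratios of replicate 2, WT and deletion breadth to fibroblasts thus compare lists of different formats.

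Gene records came from GENCODE vM1 (mm9) and RefSeq GRCm38.p6. Promoter peaks reach within 1 kb of the gene record start, body peaks overlap the gene, and distal peaks lie within 50 kb and not within 1 kb of a coding start. RefSeq starts, added after the data were seen, were placed in mm9 by a unique exact sequence match within 200 kb of the gene of that symbol. Overlap needed 1 bp. Breadth was called broader or narrower at 1.5 times, and intervals are exact at 95%. No list other than chondrocyte H3K27ac had a replicate, so no test was run. Nothing in the labels used shows whether its 2 replicates came from separate litters. Members and gene lists were chosen with earlier results of these data known. All members were named, and pathway genes where both replicates shared a promoter state opposite to fibroblasts, where no H3K27ac list marked them, or among the 3 broadest in WT; other pathway genes were named after their values were seen. The values of 1 gene that met this rule are not reported here. Shorter and longer windows and flanks, other starts, stricter lists, lists of equal length, reciprocal overlap and leaving out a replicate were tried. Peak assignment was tested on simulated peaks and against bedtools 2.31.1, using pandas 2.3.3 and numpy 2.4.6 in Python 3.11.15, with scipy 1.17.1 for intervals and matplotlib 3.10.9 for plots.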

Additional observations from a re-analysis of the deposited data

How the results depend on the processing

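No paired analysis was possible because only chondrocyte H3K27ac has numbered replicates. Of 94 alternatives, 87 left the value within the limits set for a move and 7 moved it. For the breadth, distal and gene body differences the limit was the standard deviation of the 2 replicates, 0.81 in log2 for breadth. Leaving out a replicate always shifts their mean by less than this, so for these differences it could not be called a move. A change of sign inside the limit was not called a move either, so the 87 do not show that directions held. Replicate 2 marked 8 members with every annotated transcript start and 8 with RefSeq starts, against 5 at gene record starts. The fibroblast and deletion lists, on mm9, rose from 6 to 8 with RefSeq starts. The Pfkfb3 record begins 0.011 kb from a RefSeq start on mm9 and 52.0 kb from it on GRCm38. The Hif1a record begins 6.49 kb upstream of its RefSeq start on mm9 and 6.54 kb on GRCm38, and the Ldha record 4.33 and 3.53 kb. The distal peak difference, chondrocyte mean minus fibroblasts over the 10 genes, was -4.5 and became 1.0 with the higher-scoring 50% of each list and 0.0 with a flank of 100 kb. Replicate 1 peaks without a fibroblast peak were 72.2% at 50% reciprocal overlap and 75.0% in the higher-scoring 50%, against 44.4%. With lists of equal length they were 27.3%, within the limits. Those with an H3K4me2 peak were 38.9% at reciprocal overlap and 45.5% with lists of equal length, against 88.9%. Leaving out each replicate in turn gave 5 to 8 marked members around a mean of 6.5, a distal difference of -8.0 to -1.0 and a gene body difference of 0.0 to 5.0 around 2.5. At gene record starts, the median log2 breadth ratio to fibroblasts was 0.14 over both replicates. It was -0.43 without replicate 1, from 4 members, and 0.71 without replicate 2, from 5 members. At RefSeq starts, with 7 members, the values were 0.25, -0.22 and 0.71, so the direction depended on the replicate at either start. At gene record starts the direction also differed with a 500 bp window, at -0.03, and with the higher-scoring 50%, at -0.34. The cause was not tested. The intervals of single shares are wide, and absent broad peaks in 3 lists limit statements on missing marks.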
